A study of Arabidopsis thaliana with 6 samples.

Results

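CHI (AT2G43570) and 5 genes numbered next to it, AT2G43580, AT2G43590, AT2G43600, AT2G43610 and AT2G43620, form a run of chitinase family genes on chromosome 2 of Arabidopsis thaliana. The run was taken because CHI was among the largest rises in the mutant and AT2G43590 among the largest falls. The other 4 genes were added by their locus numbers. All 6 had a probe set assigned to 1 gene, and each had 1 such probe set, among 13286 genes so represented and 22746 probe sets tested. In the gene order of the TAIR10.1 assembly the 6 genes lie in the order of their numbers. The 2 other annotated genes inside the run do not code for protein.

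Chitinases cut chitin, the sugar polymer of fungal cell walls and of insect cuticle. Plants make no chitin, and many of their chitinases are secreted or stored defence proteins whose transcripts rise during infection, while some chitinase-like proteins act in the plant's own wall. Chitin fragments released from a fungus are in turn sensed by receptor kinases at the leaf cell surface. Arabidopsis chitinases belong to the glycoside hydrolase families GH19 and GH18, and runs of neighbouring family members commonly arise by tandem duplication. CHI here is the chitinase gene and not chalcone isomerase, a flavonoid enzyme that is often abbreviated in the same way.

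Leaves were 15 days old and untreated, and their total RNA represented either the wild type, Col-0, or plants with both mutations, chr11-1 and chr17-1, here called the double mutant. Plants were grown at 21 °C with 16 h of light and 8 h of dark. CHR11 and CHR17 encode ISWI-type chromatin remodellers, ATPases that move and space nucleosomes. Each genotype was represented by 3 ATH1 arrays, single-colour Affymetrix arrays on which a probe set reads 1 or a few transcripts. No array of either single mutant was analysed here, so the parts of the chr11-1 and chr17-1 mutations cannot be told apart, and the labels name 1 allele of each gene. The labels do not say whether the 3 samples of a genotype came from separate plants, so the spread between them may be technical. In whole leaves, fewer cells of a type and less RNA per cell cannot be told apart.

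The deposited values are log2 expression levels, with array medians of 4.73 to 4.77. Arrays correlated at 0.993 to 0.996 (Pearson's r) within a genotype and at 0.97 to 0.972 between genotypes, over probe sets, whose values are not independent of each other. CHR17 itself averaged 4.78 ± 0.18 in wild-type leaves and 5.12 ± 0.21 in mutant leaves (SD, n = 3), which did not pass limma (Benjamini-Hochberg adjusted p = 0.0832). The positions of its probes and of the mutation were not given, so this does not check the labels, and CHR11 was not analysed here. Among 8 listed leaf markers only 3 were measured, and all 3 were bright, with means of 12.95 or above in both genotypes. One of them, the light-harvesting gene LHCB4.2, was higher in the mutant by 0.54 (limma adjusted p = 0.000747). The other 2 had negative differences and did not pass, RCA with -0.23 (limma adjusted p = 0.0694) and LHCB4.1 with -0.09 (0.531). An unadjusted limma p below 0.05 was seen for 2 of the 3 leaf markers. Markers of other tissues were measured for 5 of 7 listed genes, from root hair, anther and meristem, and had means of 3.65 to 4.28. None of those 5 passed limma, and 0 had an unadjusted p below 0.05. Mutant array 1 read 8.90 on the 25S ribosomal RNA control, against 10.32 to 10.85 on the other arrays. Of 64 control probe sets, 56 were above wild type in the mutant, by a median of 0.22 over all 64, and values were not rescaled to them.

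The comparison asks how the members of the cluster differed between double mutant and wild-type leaves, and whether neighbours moved together or apart. The 2 members with the largest differences went apart. CHI was 13.8-fold higher in the mutant, AT2G43590 was 12.4-fold lower, and AT2G43620, at the far end of the run, was 1.78-fold higher. AT2G43580, AT2G43600 and AT2G43610 stayed dim in both genotypes. Since CHI and AT2G43590 were chosen from this same contrast, the values of the members are a description and no test is given for them.

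CHI, the first gene of the run, is annotated as a putative chitinase. The wild-type arrays read 4.52, 4.58 and 4.50 on the log2 scale, whereas the mutant arrays read 8.34, 8.32 and 8.28. CHI thus averaged 4.53 ± 0.044 against 8.32 ± 0.032 (SD, n = 3 each), and the log2 difference was 3.78. The arrays of a genotype lay close together, and the nearest arrays of the 2 genotypes were 3.70 apart. In wild type CHI lay below the array median, at percentiles 45.3 to 47.0 of all probe sets, and in the mutant at percentiles 86.2 to 86.6. Background was not measured, so the fold is one of array signal, and the wild-type level may itself be background.

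AT2G43590, with 1 member between it and CHI, went the other way. Wild-type leaves gave 9.05, 8.69 and 8.61, and mutant leaves 5.24, 5.33 and 4.88. The gene averaged 8.78 ± 0.24 against 5.15 ± 0.24 (SD, n = 3 each), and the log2 difference was -3.63. All 3 mutant arrays were low, with a gap of 3.28 between the nearest arrays of the genotypes. The mutant level was just above the array median, at percentiles 52.2 to 58.3, against 88.4 to 91.1 in wild type. As for CHI, the fold is one of array signal, and the mutant level may itself be background, which was not measured. The spread within each genotype was wider than that of CHI and small beside the difference.

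AT2G43620, the last gene of the run, read 4.27, 4.09 and 4.23 on the wild-type arrays, against 5.51, 4.77 and 4.81 on those of the mutant. The log2 difference was 0.83, from 4.2 ± 0.094 to 5.03 ± 0.41 (SD, n = 3). The genotypes did not overlap, with 0.51 between the nearest arrays, but mutant array 1 stood well above the other 2 mutant arrays. That array is also the one with the low 25S control reading, whose part in the value was not tested. Without it the log2 difference was 0.59, which has the same direction. The level lay below the array median in wild type, at percentiles 34.4 to 38.9, and at percentiles 50.8 to 58.8 in the mutant. Mutant arrays 2 and 3 were only just above their medians of 4.73 and 4.74.

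**Figure D1:**
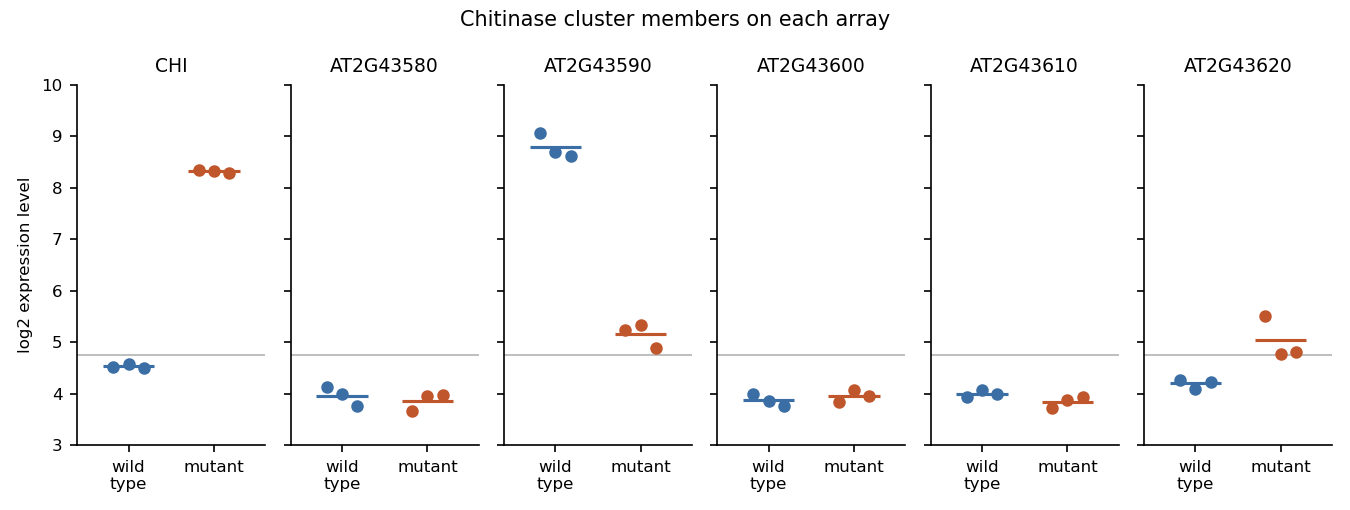
Log2 expression level (y axis) of the 6 cluster members on each of the 3 wild-type (blue) and 3 mutant (orange) arrays. Points are arrays, short lines are group means and the grey band is the range of array medians. CHI lies near 4.5 in wild type and 8.3 in the mutant, AT2G43590 has means of 8.78 in wild type and 5.15 in the mutant, and 3 members stay below the grey band on every array.

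The remaining 3 members were dim on every array: their 18 values lay between 3.67 and 4.13, all below the array medians. AT2G43580, which lies between CHI and AT2G43590, read 4.13, 3.99 and 3.75 on the wild-type arrays, against 3.67, 3.94 and 3.98 on those of the mutant. These ranges overlap, and the log2 difference was -0.09, within the SDs of 0.19 and 0.17. Neither the higher level of its one neighbour nor the lower level of its other neighbour in the mutant was seen for it.

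AT2G43600 also overlapped between genotypes, reading 4.0, 3.86 and 3.75 on the wild-type arrays and 3.83, 4.06 and 3.96 on the mutant ones, a log2 difference of 0.08. AT2G43610 read 3.93, 4.07 and 3.99 for wild type, then 3.72, 3.87 and 3.93 for the mutant. Its log2 difference of -0.16 separates the genotypes by 0.002 between the nearest arrays, which is far less than its SDs of 0.07 and 0.11. Probe sets this dim cannot show whether the transcripts were absent, present below detection, or unchanged. No member's probe set carries the suffix for possible cross-hybridisation, but probe sequences were not used here, and whether a probe set of one member also binds the transcript of another was not tested.

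Counted over the run, 4 of 6 members had arrays of the genotypes that did not overlap, 2 with the mutant higher and 2 with it lower. Among all probe sets tested this held for 39.5%, with 19.4% higher and 20.1% lower. A difference of at least 2-fold was seen for 2 of 6 members and for 5.02% of all probe sets, 2.74% higher and 2.28% lower. Nothing is read from these counts, because the contrast chose the run. The median log2 difference over the 6 members was -0.0055 and over all probe sets -0.0028. A median near 0 here hides a pair of large opposite differences. Among the 22746 probe sets, CHI had rank 13 from the largest rise, AT2G43590 had rank 6 from the largest fall and AT2G43620 had rank 884 from the largest rise.

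**Figure D2:**
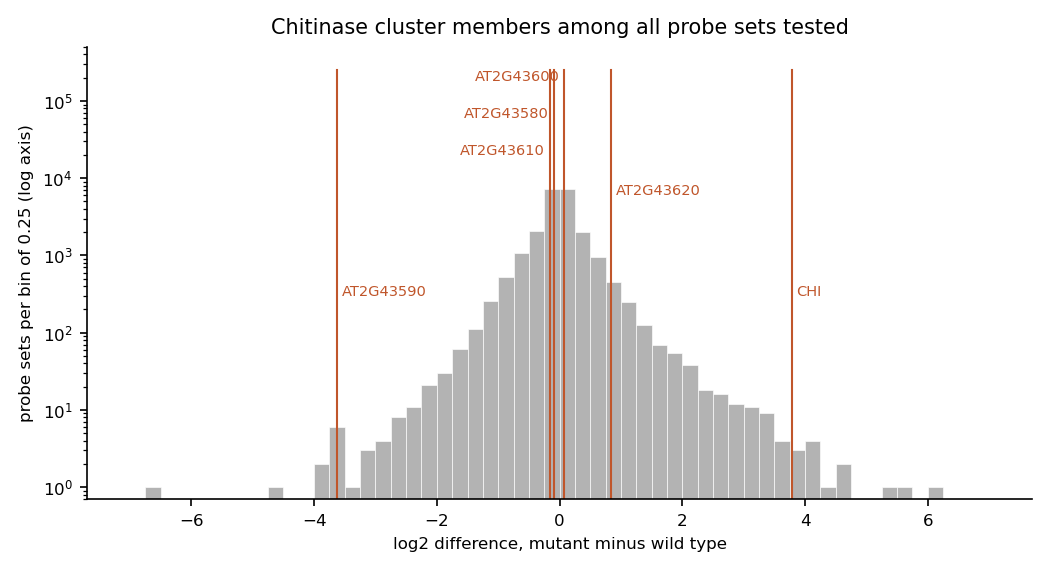
Number of probe sets (y axis, log scale) by log2 difference, mutant minus wild type, in bins of 0.25 (x axis), with orange lines at the 6 cluster members. CHI (3.78) and AT2G43590 (-3.63) lie in opposite tails, AT2G43620 (0.83) lies on the right shoulder and the other 3 lie in the central peak.

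A further question is whether the genes around the run differed as well. Of the 10 nearest measured genes on each side, 4 rose and 2 fell at a limma adjusted p below 0.05, and 14 did not pass. That is 30% of the 20, against 28.6% of all probe sets tested (14% higher and 14.7% lower), so the share past the test around the run was close to that of the array. The median log2 difference of the 20 was 0.03, and 1 of them reached 2-fold.

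The genes bordering the run were AT2G43560 and AT2G43630, and only AT2G43560 passed the test. AT2G43560, next to CHI, fell from 11.18 ± 0.052 to 10.74 ± 0.15 (SD, n = 3), a log2 difference of -0.44 (limma adjusted p = 0.00682). AT2G43630, next to AT2G43620, had a log2 difference of -0.07 (limma adjusted p = 0.74). The measured neighbour of CHI on this side thus went in the other direction from CHI, by a far smaller amount, but CHI was picked for its size.

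Further out, AT2G43420 had the largest difference of the 20 and rose by 1.09 (limma adjusted p = 0.000119), AT2G43550 rose by 0.74 (0.000479) and AT2G43780 by 0.51 (0.00196). LSM6B, which encodes an Sm-like RNA-binding protein, rose by 0.48 (limma adjusted p = 0.0225) and AT2G43640 had -0.44 (0.0276). These last 2 calls depended on single arrays. For LSM6B, leaving out mutant array 1 gave 0.38 (limma adjusted p = 0.0701), leaving out mutant array 2 gave 0.46 (0.0696) and leaving out wild-type array 1 gave 0.35 (0.0792), so it no longer passed. AT2G43640 was lost too when mutant array 1 (-0.41, limma adjusted p = 0.0633), mutant array 3 (-0.42, 0.076), wild-type array 2 (-0.41, 0.0943) or wild-type array 3 (-0.32, 0.111) was left out. Over all alternatives the adjusted p of LSM6B ran from 0.00925 to 0.0792 and that of AT2G43640 from 0.00317 to 0.111.

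**Figure D3:**
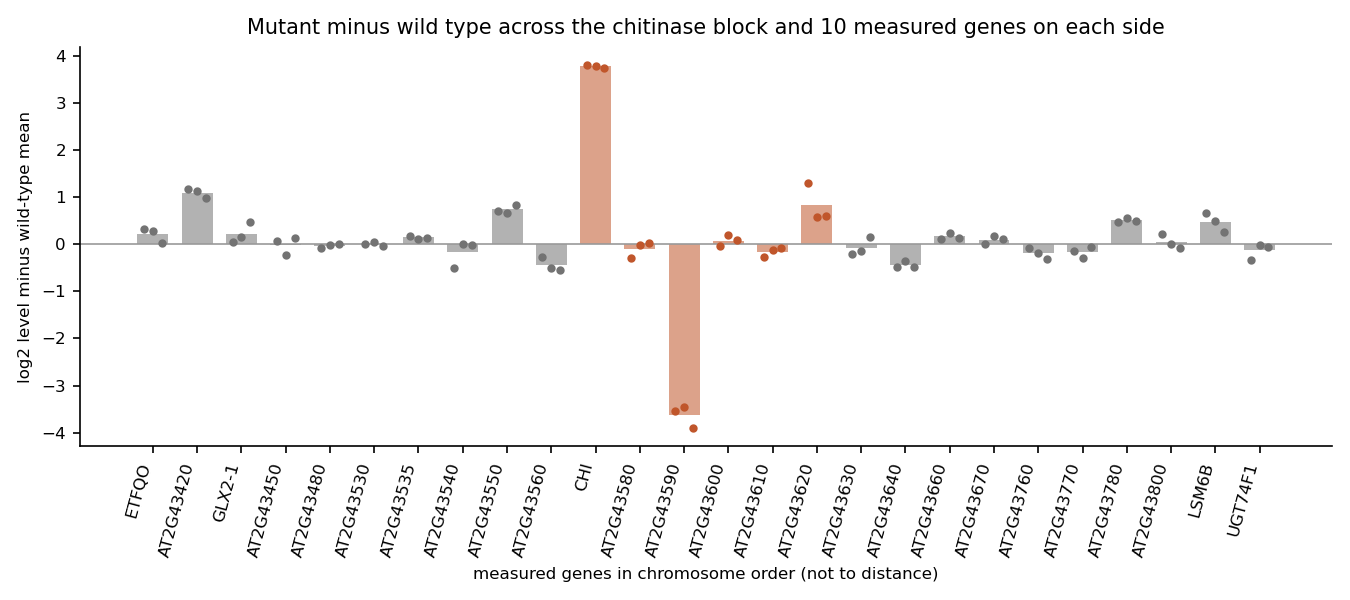
Log2 level in the mutant minus the wild-type mean (y axis) for the 6 cluster members (orange) and the 10 nearest measured genes on each side (grey), in chromosome order and not to distance. Bars are means and points are the 3 mutant arrays. The bars of CHI (3.78) and AT2G43590 (-3.63) stand on both sides of AT2G43580 (-0.09), and the grey bars lie between -0.44 and 1.09.

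To set the pair beside other neighbours, all pairs of measured nuclear genes that were adjacent or had 1 measured gene between them were listed, 26419 in all, each gene entering several pairs. In 74 pairs both genes differed by at least 2-fold, 25 in opposite and 49 in the same direction. At 4-fold or more there were 4 pairs, 1 opposite and 3 in the same direction. The opposite one was CHI with AT2G43590, and it was also the single pair with both genes at 8-fold or more. The 3 pairs in the same direction were COR15B with COR15A, which are cold-regulated genes and were both lower in the mutant, AT5G25450 with AT5G25470, and AT5G52750 with AT5G52760. This is a description, as CHI and AT2G43590 were picked for their sizes.

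The chitinase genes outside the run were compared next. A list of 18 other GH19 and GH18 genes was drawn from general knowledge of these families, and 9 of them were measured. Of the 9, 2 rose, 1 fell and 6 did not pass limma, which is 33.3% past the test against 28.6% of all probe sets. Their median log2 difference was 0.04. The differences were far smaller than those of CHI and AT2G43590, but that pair was picked for its size, so nothing is read from this.

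All 3 that passed belong to GH19, the family that the same general knowledge gives for the run. AT4G01700 went from 5.40 ± 0.26 to 6.47 ± 0.11 (SD, n = 3), a rise of 1.07 (SE 0.13, limma adjusted p = 0.000146). AT1G02360 rose by 0.63 (limma adjusted p = 0.000996), from 4.45 ± 0.044 to 5.07 ± 0.17. AT3G47540 had a log2 difference of -0.55 (limma adjusted p = 0.00583), from 6.41 ± 0.11 to 5.86 ± 0.22. For these 3 genes, named because they passed, the genotypes did not overlap, which held for 39.5% of all probe sets tested. The fourth measured GH19 gene, AT1G56680, had 0.15 and did not pass. These 4 genes are too few to set against the 28.6% of all probe sets past the test. Both directions occurred among GH19 genes outside the run as well, at smaller size than in CHI and AT2G43590, which were picked for their size.

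The 5 measured GH18 genes come from another numbered run, on chromosome 4, which includes ChiC, a class V chitinase gene. Their log2 differences lay between -0.03 and 0.12. Of the 5, 0 passed limma, against 28.6% of all probe sets, and 0 had an unadjusted p below 0.05. So few genes cannot be set against that share. ChiC had means of 4.34 in wild type and 4.32 in the mutant, and the means of the other GH18 genes lay between 3.65 and 3.98. All of these are below the array medians, where a difference in transcript may not be seen. Whether the GH18 and GH19 genes differ in response was not tested.

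Other defence proteins that are often induced together with chitinases also went both ways. Of 16 listed pathogenesis-related proteins 8 were measured, of which 3 rose, 2 fell and 3 did not pass, with a median log2 difference of 0.14. That is 62.5% of the 8 past the test, against 28.6% of all probe sets (14% higher and 14.7% lower), and nothing particular to the list is read from so few genes. THI2.2, a thionin, which is a small antimicrobial protein, rose by 1.07 (limma adjusted p = 6.98e-05). OSM34, an osmotin, rose by 0.68 (limma adjusted p = 0.00284) and PDF1.4, a defensin-family gene, by 0.48 (0.00279). Both stayed below the array medians, with OSM34 means of 3.88 in wild type and 4.57 in the mutant, and PDF1.4 means of 4.04 and 4.52.

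PDF1.2b, a plant defensin gene, had a log2 difference of -1.47 (limma adjusted p = 1.71e-06), from 10.19 ± 0.072 to 8.72 ± 0.096 (SD, n = 3). Its probe set carries a suffix that marks possible cross-hybridisation, and its near-identical copy PDF1.2 had -0.13 (limma adjusted p = 0.375), so the reading of either copy is uncertain. AT4G16260, also on the list, had -0.47 (limma adjusted p = 0.00435). Genes past the test in each direction make up similar shares of the whole array, so both signs in a list are not particular to it.

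**Figure D4:**
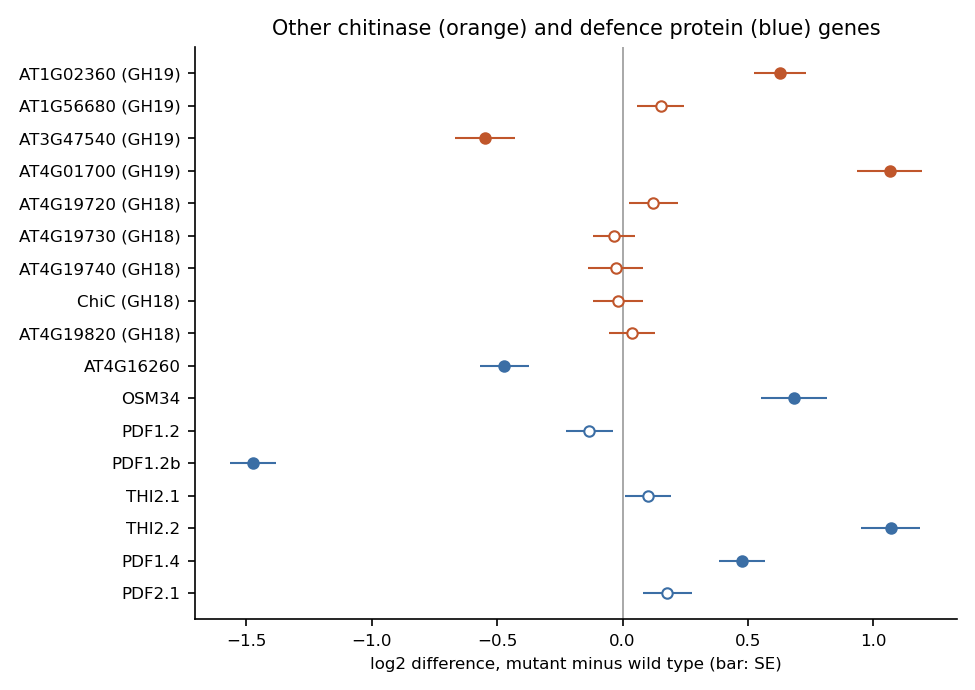
Log2 difference, mutant minus wild type (x axis), for the measured chitinase genes outside the run (orange, with family) and the measured pathogenesis-related protein genes (blue). Points are differences of 3 against 3 arrays, bars are standard errors from limma and filled points passed at an adjusted p below 0.05. AT4G01700 (1.07) and AT3G47540 (-0.55) show both directions within GH19, and the GH18 genes lie near 0.

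Genes of chitin perception and signalling were sparsely covered. Of 19 listed genes 3 were measured, of which 1 rose and 2 did not pass, or 33.3% past the test against 28.6% of all probe sets. BIK1, a receptor-associated kinase of immune signalling, went from 6.52 ± 0.21 to 6.92 ± 0.15 (SD, n = 3), a rise of 0.40 (SE 0.13, limma adjusted p = 0.0363), and its arrays overlapped between genotypes. The call was lost when wild-type array 1 (0.30, limma adjusted p = 0.128), wild-type array 3 (0.37, 0.107), mutant array 1 (0.35, 0.0967) or mutant array 3 (0.36, 0.104) was left out, and its adjusted p spanned 0.0143 to 0.128 across the alternatives. Of 16 listed regulators of salicylate defence 2 were measured and 1 passed, which is too few to set against the 28.6% of all probe sets. GRX480, a glutaredoxin gene that salicylate induces, rose by 1.06 (limma adjusted p = 1.98e-05). SAG101, which acts in the EDS1 branch of immunity, had -0.06 and did not pass (limma adjusted p = 0.764). Most well-known genes of these pathways were not analysed here, so the lists describe a minority of each pathway.

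The genes whose 6 values were most like those of CHI were found by the root-mean-square distance of log2 levels after subtracting the wild-type mean of each gene. The nearest were AT2G37130 at a distance of 0.16, AT3G53980 at 0.22 and AT3G45730 at 0.33. AT2G37130 read 4.25, 4.29 and 4.0 for wild type, then 7.75, 7.74 and 8.02 for the mutant. Like CHI, all 3 began near or below the array median in wild type and reached means of 7.84 to 8.54 in the mutant.

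For AT2G43590 the nearest were COR15B at 0.27, CHL, a chloroplast lipocalin gene, at 0.27 and AT1G73600 at 0.32. COR15B read 10.74, 10.81 and 10.81 for wild type, then 7.66, 7.26 and 6.56 for the mutant. CHL read 10.85, 10.94 and 10.71 for wild type, then 7.05, 6.85 and 6.87 for the mutant. No other member of the run was among the 3 genes nearest to CHI or to AT2G43590. This likeness rests on 6 arrays in 2 genotypes and mostly measures the size of the difference.

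**Figure D5:**
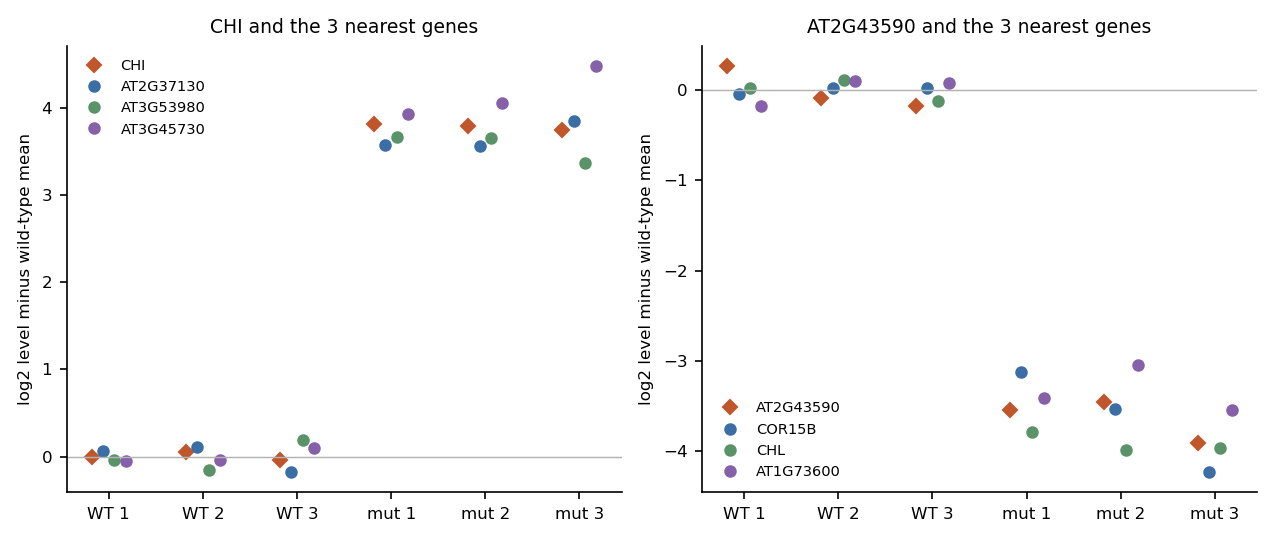
Log2 level minus the wild-type mean (y axis) on each of the 6 arrays (x axis) for CHI with its 3 nearest genes (left) and AT2G43590 with its 3 nearest genes (right). Diamonds are the cluster member and circles the other genes, set slightly apart along x. The points lie near 0 in wild type, and all mutant points lie above 3 on the left and below -3 on the right.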

How the data were processed

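Leaf RNA of 3 wild-type and 3 chr11-1 chr17-1 samples was read on ATH1 arrays. The deposited values are on a log2 scale, judged by their range, with 1 value per probe set and array. Per the submitters' processing notes the software was RMA and Partek, with no version, order or setting given. Values were used as deposited, after leaving out 64 of 22810 probe sets as controls. Genes came from the series' probe table, updated through a TAIR10.1 gene table that was used for names and gene order (13436 of 13513 1-gene probe sets matched, 13286 genes, highest mean probe set per gene). Unnamed probe sets entered the fit and no list.

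Genotypes were compared, mutant minus wild type, with limma 3.58.1 in R 4.3.3 (lmFit, eBayes, two-sided, Benjamini-Hochberg over 22746 probe sets, threshold 0.05), tested on simulated data. Tables were made in pandas 2.3.3 (Python 3.11.15) and figures in matplotlib 3.10.9. The number of arrays limits the precision. The members and lists were chosen with earlier results of these data known. Named genes are the members, up to 4 genes past the test per list, the flanking genes past the test and the 3 genes nearest to CHI and AT2G43590; other names were added after their values were seen. Alternatives were quantile normalization, median centring, leaving out the lowest 30% or suffixed probe sets, a trended robust prior, array weights, a replicate block, averaging the probe sets of a gene, each array left out and a threshold of 0.01.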

Additional observations from a re-analysis of the deposited data

How the results depend on the processing

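The 12 alternatives run for each member gave log2 differences of 3.76 to 3.81 for CHI and -3.72 to -3.50 for AT2G43590. For AT2G43620 the range was 0.59 to 0.96. Each member moved by less than its SD, but most alternatives could not have given another outcome. The replicate block, averaging probe sets and leaving out suffixed probe sets cannot change these differences. Leaving out 1 array of 3 cannot move a difference by as much as its SD. Only quantile normalization, median centring and array weights could have done so. AT2G43580 changed sign in 1 of 12 alternatives. The counts over all probe sets stayed within 1.5 times their value. The rising chitin perception gene, BIK1, was lost (0 genes) with array weights, with the replicate block and at adjusted p 0.01, and numbered 0 to 1 when arrays were left out. Falling flanking genes numbered 1 at adjusted p 0.01 and 1 to 2 when arrays were left out. Falling pathogenesis-related genes numbered 1 without suffixed probe sets, since PDF1.2b was then not tested. Whether arrays with the same replicate number were paired is not known. Their deviations from the group means correlated at -0.3 to -0.166, but arrays with different numbers were not compared, so this cannot decide it. The replicate block moved no other count by over 1.5 times. Dim probe sets limit what can be said of AT2G43580, AT2G43600 and AT2G43610.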
